A study of Homo sapiens with 11 samples.

Results

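Mitosis was followed through 40 genes in RNA of 11 tumours grown from PC-3 cells, a human prostate carcinoma cell line. The genes were taken as a named list of mitotic regulators and of kinetochore, spindle and condensin genes, and all 40 were found among the 25590 genes of the deposited tables and were kept among the 16630 genes that could be tested. PC-3 cells had been grafted under the skin of male athymic nude mice, 8 weeks old, which lack T cells but keep other host cells. Of the mice, 5 received PBS (tumours T123 to T127) and 6 received A2M* (T128 to T132 and T112), the transformed form of human alpha-2-macroglobulin, by injection into the abdomen. Each tumour gave 1 library, and no label names a further allele, treatment or shared litter.

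A cell enters mitosis when CDK1, bound to a B-type cyclin, escapes the inhibitory kinase WEE1 through the phosphatase CDC25C. Condensin then compacts the chromosomes, kinetochores attach them to the spindle, and the spindle checkpoint holds the anaphase-promoting complex until every chromosome is attached. CDC20 and UBE2C then drive the destruction of securin and cyclin B, and motors and scaffold proteins divide the cell. Most of these genes are transcribed late in the cell cycle, under MuvB complexes that bind a short promoter element, the cell cycle genes homology region (CHR), together with NF-Y at CCAAT boxes and with FOXM1. Their RNA is therefore low in resting cells and is widely used as a readout of how many cells of a tissue are dividing.

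Promoters are shown for the 6 members with values by tumour whose windows held a CHR (MKI67, NCAPG, TOP2A, CDC25C, NCAPD2 and INCENP). All 6 thus hold a CHR by selection and do not stand for the list. KIF20A and CENPE also have values by tumour, but their windows held no CHR and are not shown. The sequences are RefSeq windows on GRCh38.p14, from 250 bases before to 50 bases after the annotated start, read 5′ to 3′ on the strand of the gene. Capitals mark each CHR, searched as TTTGAA or TTCGAA on both strands, and each CCAAT box, searched as CCAAT on both strands (ATTGG on the other).
MKI67, chr10:128126374-128126673, minus strand: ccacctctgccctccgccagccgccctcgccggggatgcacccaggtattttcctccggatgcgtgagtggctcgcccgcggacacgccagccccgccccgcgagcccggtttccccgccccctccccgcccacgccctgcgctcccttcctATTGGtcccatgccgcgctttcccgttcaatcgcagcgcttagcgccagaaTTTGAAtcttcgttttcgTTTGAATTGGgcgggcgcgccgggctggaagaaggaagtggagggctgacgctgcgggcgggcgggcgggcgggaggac
NCAPG, chr4:17810729-17811028, plus strand: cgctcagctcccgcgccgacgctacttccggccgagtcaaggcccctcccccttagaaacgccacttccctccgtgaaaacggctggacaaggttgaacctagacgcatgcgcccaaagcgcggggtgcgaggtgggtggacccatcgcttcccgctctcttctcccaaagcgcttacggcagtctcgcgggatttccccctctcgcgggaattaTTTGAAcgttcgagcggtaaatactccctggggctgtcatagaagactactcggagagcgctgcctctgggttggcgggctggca
TOP2A, chr17:40417847-40418146, minus strand: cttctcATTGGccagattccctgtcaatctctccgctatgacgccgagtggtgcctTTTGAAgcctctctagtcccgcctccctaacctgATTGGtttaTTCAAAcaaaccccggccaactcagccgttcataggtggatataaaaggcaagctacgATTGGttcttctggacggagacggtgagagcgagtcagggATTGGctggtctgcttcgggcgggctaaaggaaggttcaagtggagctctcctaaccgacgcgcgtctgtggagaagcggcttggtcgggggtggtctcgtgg
CDC25C, chr5:138331755-138332054, minus strand: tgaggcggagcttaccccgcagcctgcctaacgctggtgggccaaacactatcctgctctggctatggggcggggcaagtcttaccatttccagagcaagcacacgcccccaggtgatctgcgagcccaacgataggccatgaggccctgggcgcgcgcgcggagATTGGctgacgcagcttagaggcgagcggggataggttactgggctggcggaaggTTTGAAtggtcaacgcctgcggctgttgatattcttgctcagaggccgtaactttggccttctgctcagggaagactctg
NCAPD2, chr12:6493852-6494151, plus strand: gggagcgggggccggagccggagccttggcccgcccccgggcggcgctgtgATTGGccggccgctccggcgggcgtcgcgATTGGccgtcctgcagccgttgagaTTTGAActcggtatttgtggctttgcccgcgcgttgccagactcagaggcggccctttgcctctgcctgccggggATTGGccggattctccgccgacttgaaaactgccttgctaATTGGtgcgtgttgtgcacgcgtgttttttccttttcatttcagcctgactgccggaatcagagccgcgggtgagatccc
INCENP, chr11:62123761-62124060, plus strand: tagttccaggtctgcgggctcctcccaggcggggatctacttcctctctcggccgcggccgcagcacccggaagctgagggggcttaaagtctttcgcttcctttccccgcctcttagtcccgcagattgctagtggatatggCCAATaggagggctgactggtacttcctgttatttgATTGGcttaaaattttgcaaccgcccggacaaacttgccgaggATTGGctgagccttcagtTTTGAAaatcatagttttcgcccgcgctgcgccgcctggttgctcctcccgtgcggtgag

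MKI67 held a pair of CHR letters, starting 47 and 29 bases before the start, and the nearer of them shared its last base with a CCAAT box. In NCAPG the CHR began 35 bases before the start and there was no CCAAT box. The CDC25C window, the one of its 4 windows whose CHR lay closest to the start, had its CHR at 30 bases and its CCAAT box at 85 bases before it. In INCENP the CHR began 10 bases before the start, with 3 CCAAT boxes upstream. TOP2A had CHR letters at 194 and 151 bases before the start, and NCAPD2 at 145 bases, farther out than in the other genes shown, and each had 4 CCAAT boxes.

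RefSeq windows were matched for 32 of the 40 members, 40 windows in all, and not for TPX2, BIRC5, AURKA, TTK, BUB3, FOXM1, WEE1 and UBE2C. A CHR stood in 28 of the 40 windows, or 70.0%, where 16.4% of all 35116 windows of the table held one. By gene, 25 of 32 members had a CHR in at least 1 window, 78.1% against 19.5% of all genes. CCAAT boxes were in 28 windows (70.0%, against 34.6% of all windows), and both motifs together in 21 (52.5%, against 6.38%). In 20 member windows a CHR began within 50 bases of the start, as it did in 5.01% of all windows. AURKB, CCNA2, CCNB1, CENPE, KIF20A, KIF2C and PTTG1 had no such letters in the windows searched. These are matches of letters in the reference genome, and binding was not measured in the tumours.

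The libraries held between 16958533 and 35874381 counts on human genes. The lowest count of a member in any tumour was 89 (CDC25C) and the highest 6125 (BUB3), so that counting error came to a coefficient of variation of at most 10.6%. Levels between tumours are given as CPM, counts per 1e+06 counts after TMM normalization, and levels between genes as RPKM, which also divides by exon length. Genes of the PC-3 cell were in place, with KRT8 between 451 and 629 CPM, and KLK3, a prostate gene that PC-3 lacks, had 0 counts in every tumour. In bulk RNA, a smaller number of dividing cells and less mitotic RNA in each of them cannot be told apart. The TruSeq RNA v2 kit does not mark strand, and the exons of 18 members overlap those of another gene. Among these are NCAPD2 (MRPL51), NCAPG (LCORL), KIF20A (BRD8 and CDC23), SMC4 (IFT80 and TRIM59), CDC25C (FAM53C), FOXM1 (ITFG2), BUB1B (PAK6) and CENPA (SLC35F6). The counts of such members may hold reads of the neighbour or miss reads of their own. How reads shared by overlapping genes were counted is not given in the sources used here. Near-identical copies of PTTG1 and AURKA could share reads with them. PTTG2 had 0 counts in every tumour, PTTG3P at most 43 and AURKAPS1 at most 71.

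MKI67 encodes the Ki-67 protein, which coats mitotic chromosomes and is stained as a proliferation marker. It lies on chromosome 10 of GRCh37, from 129894923 to 129924687. In the PBS tumours T123 to T127 its RNA measured 99.7, 91.4, 78.5, 128.1 and 72.7 CPM, and in the A2M* tumours the lowest value was 57.8, the median 90.3 and the highest 123.3 CPM. T126 was the highest of all 11 tumours and T132 the lowest, and the range of the A2M* group took in all of the PBS group except T126. The means were 94.0 ± 21.8 CPM (SD, n = 5) and 92.8 ± 23.6 CPM (SD, n = 6). The log2 fold change, A2M* against PBS, was -0.02 with a 95% confidence interval from -0.40 to 0.37 (standard error 0.18, edgeR adjusted p = 0.992), and its sign depended on the tumours included.

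**Figure D1:**
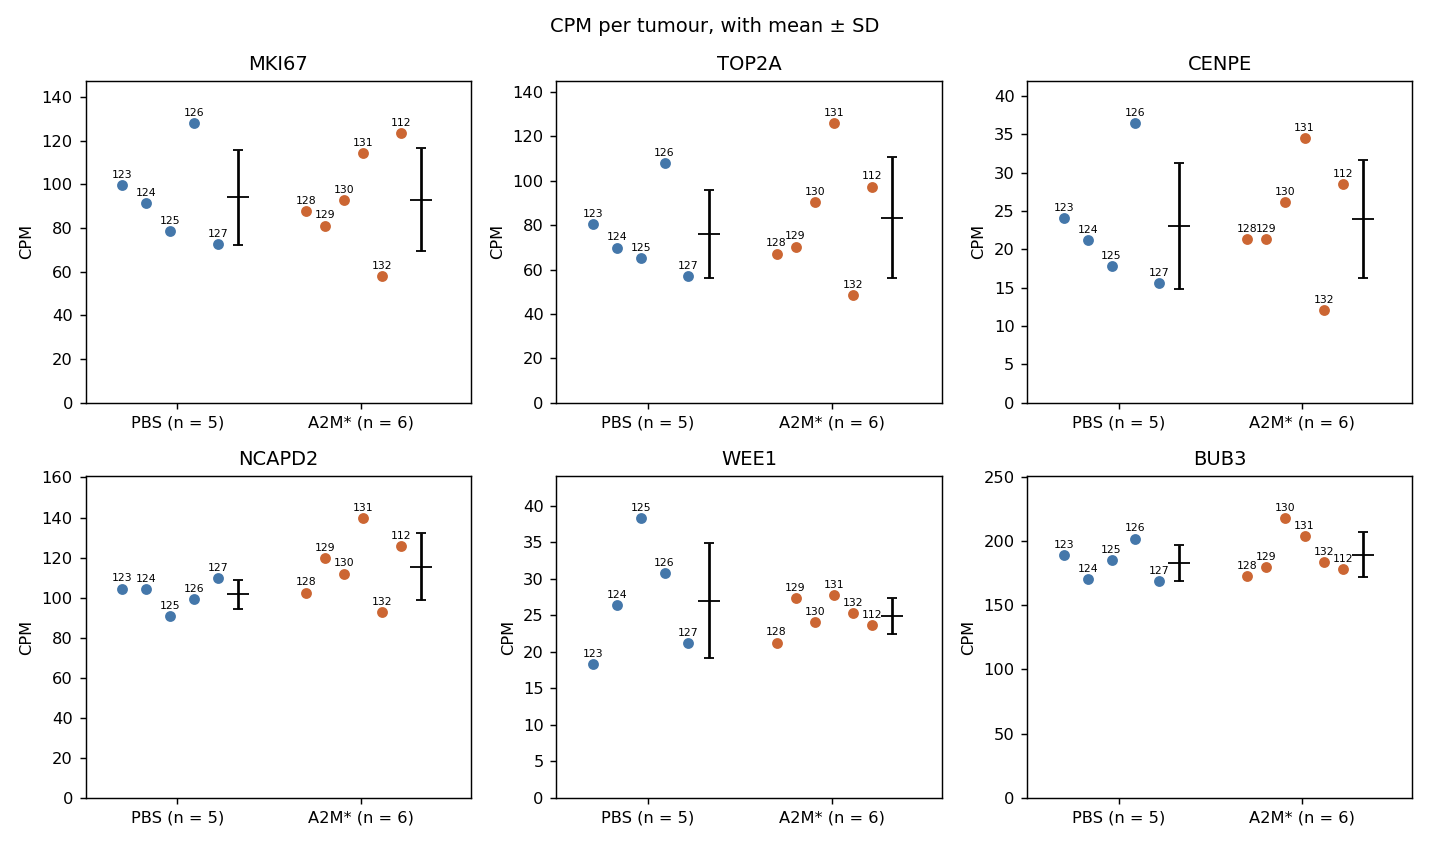
CPM (vertical axis, from 0) of 6 genes in each tumour, PBS (blue, n = 5) and A2M* (orange, n = 6), numbered by tumour, with the mean and SD of each group in black. MKI67, TOP2A and CENPE share a pattern with T126, T131 and T112 on top and T132 at the bottom, while WEE1 and BUB3 have another order, and the groups overlap for every gene shown.

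For none of the 40 genes did a difference between the groups pass the test. At an adjusted p under 0.01 the edgeR quasi-likelihood test called 0 of 40 members, as it called 0% of all genes tested. At an unadjusted p under 0.05 it also called 0 of 40, where 7.08% of all genes were called. DESeq2 and limma-voom gave 0 of 40 at either limit too. Of all 16630 genes, DESeq2 called 1 at the adjusted and 1233 at the unadjusted limit, and limma-voom 0 and 1179. Groups that do not overlap in CPM occurred in 0 members and in 0.71% of all genes. The smallest unadjusted p of a member was 0.0751 (NCAPD2, edgeR adjusted p = 0.746).

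In direction, 34 of 40 members had a log2 fold change above 0, as had 49.4% of all genes tested. None of the 34 had an unadjusted p under 0.05 (3.55% of all genes were called and higher in A2M*), nor had any of the other 6 (3.53% called and lower). Their median was 0.065 on the log2 scale, a fold of 1.05, beside -0.0021 over all genes. The members ranged from -0.14 (BIRC5) to 0.23 (KIF20A), so that none moved beyond 0.25 in either direction. The 95% confidence intervals reached from -0.48 to 0.68 at their outermost, and those of 32 members lay wholly within 0.5 on the log2 scale. All 40 lay within 1, a 2-fold change. Because the members vary together between tumours, as shown further on, the count of 34 is not 34 separate observations. It fell to 12 without A2M* tumour T131 (median -0.024), to 19 without A2M* tumour T112 (median -0.0089) and to 20 without PBS tumour T127 (median 0.00087). Without PBS tumour T125 it was 26 (median 0.024), and without A2M* tumour T132 or PBS tumour T126 it was 38 (medians 0.155 and 0.139). Scaling by library size only gave 37 above 0 and a median of 0.104, with a median of 0.042 over all genes.

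**Figure D2:**
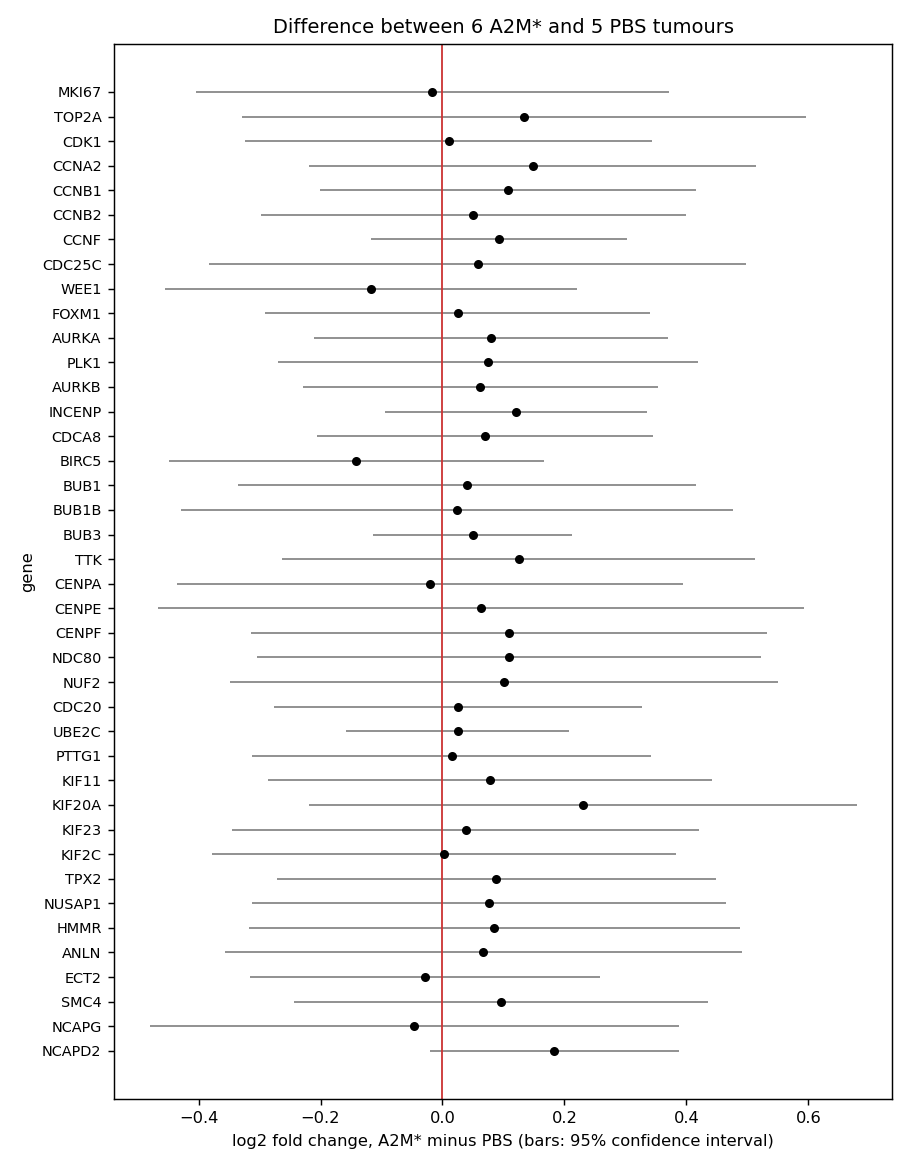
Log2 fold change (horizontal axis, A2M* minus PBS) of the 40 genes, ordered by role, with 95% confidence intervals from edgeR as grey bars and 0 as a red line. Every interval spans 0, and the points lie between -0.14 and 0.23.

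Of the switches that start mitosis, 6 of 7 had a log2 fold change above 0, as had 49.4% of all genes tested. With 1 tumour left out, CDK1, CCNB2 and CDC25C turned below 0 at least once. CDK1, the mitotic kinase itself, averaged 98.7 ± 22.5 CPM (SD, n = 5) under PBS and 99.2 ± 19.5 CPM (SD, n = 6) under A2M* (log2 fold change 0.010). Its partner CCNB1, cyclin B1, ranged from 43.97 to 64.2 CPM in the PBS and from 40.1 to 76.7 CPM in the A2M* tumours (log2 fold change 0.11). CCNB2, cyclin B2, ranged from 13.8 to 21.5 and from 13.0 to 25.1 CPM (0.051 on the log2 scale). CCNA2, cyclin A2 of S phase and G2, had 14.8 to 31.3 CPM in the A2M* group and 17.7 to 26.1 CPM in the PBS group (log2 fold change 0.15). CCNF, an F-box protein that marks substrates for destruction in G2, stayed between 15.3 and 23.7 CPM over all tumours (log2 fold change 0.092).

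CDC25C removes the inhibitory phosphates from CDK1, and it was the lowest of all members per length, at 2.29 RPKM. The PBS tumours T123 to T127 had 6.00, 6.09, 4.83, 8.02 and 3.89 CPM, and the A2M* tumours had a lowest value of 3.89, a median of 5.86 and a highest value of 7.90 CPM. T126 was again the highest and the groups shared nearly the whole range (log2 fold change 0.058, standard error 0.20, edgeR adjusted p = 0.971). WEE1, the kinase that CDC25C opposes, lies on chromosome 11 of GRCh37 from 9595217 to 9615004. WEE1 measured 18.4, 26.5, 38.3, 30.8 and 21.2 CPM in T123 to T127, and 21.3, 24.7 and 27.8 CPM as the lowest, median and highest A2M* tumour. Here T125 was the highest and T123 the lowest, both of them PBS tumours, and all A2M* tumours lay between them. The log2 fold change of WEE1 was -0.12 (standard error 0.16, edgeR adjusted p = 0.920), and without T125 it was 0.043.

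The transcription factor FOXM1, which activates late cell cycle genes, averaged 64.5 ± 7.78 CPM (SD, n = 5) under PBS and 65.5 ± 15.2 CPM (SD, n = 6) under A2M* (log2 fold change 0.025). AURKA, the centrosome and spindle pole kinase, ranged from 34.3 to 46.1 and from 29.0 to 53.6 CPM (log2 fold change 0.080). For PLK1, which acts on centrosomes, kinetochores and cytokinesis, the ranges were 22.8 to 29.7 and 17.1 to 37.2 CPM (log2 fold change 0.075). TOP2A, on chromosome 17 of GRCh37 from 38544777 to 38574148, untangles sister chromatids. Its PBS tumours T123 to T127 measured 80.3, 69.9, 65.0, 108 and 57.1 CPM, and its A2M* tumours had a lowest value of 48.5, a median of 80.3 and a highest value of 126.1 CPM. T131 was the highest and T132 the lowest, both A2M*, so that the A2M* group enclosed the PBS group (log2 fold change 0.13, standard error 0.21, edgeR adjusted p = 0.935).

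The chromosomal passenger complex, which corrects faulty attachments, is made of AURKB, INCENP, CDCA8 and BIRC5. Per length, BIRC5 was the most abundant of them with 31.0 RPKM, followed by AURKB with 13.9, INCENP with 10.3 and CDCA8 with 8.05 RPKM. BIRC5 (survivin, GRCh37 chromosome 17 from 76210267 to 76221717) measured 99.2, 93.8, 81.3, 99.1 and 68.1 CPM in T123 to T127 and 56.4, 77.8 and 107 CPM as the lowest, median and highest A2M* tumour. It had the lowest log2 fold change of all members, -0.14 (standard error 0.14, edgeR adjusted p = 0.894), though its highest tumour was T112 of the A2M* group. INCENP, the scaffold of the complex (chromosome 11 from 61891470 to 61920641), measured 41.6, 42.8, 37.5, 42.8 and 38.5 CPM in T123 to T127. Its A2M* tumours had a lowest value of 33.4, a median of 44.9 and a highest value of 51.9 CPM, so that they enclosed the narrow PBS range. The log2 fold change of INCENP was 0.12 (standard error 0.10, edgeR adjusted p = 0.864). Without T132 its unadjusted edgeR p was 0.0318 (adjusted p = 0.453), in a setting where 1684 of 16605 genes tested were under 0.05. With any other single tumour left out, its unadjusted p was not under 0.05. Without T131 its log2 fold change was 0.070. AURKB and CDCA8, the kinase and the borealin subunit, had log2 fold changes of 0.062 and 0.070, with all tumours between 14.4 and 24.0 CPM and between 15.8 and 25.0 CPM.

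Among the genes of the spindle checkpoint, BUB3 was the most abundant of all 40 members with 67.5 RPKM, and it varied least. BUB3 (chromosome 10 from 124913918 to 124929983) measured 189, 170, 185, 202 and 169 CPM in T123 to T127, and its A2M* tumours had a lowest value of 173, a median of 182 and a highest value of 218 CPM. The highest and lowest tumour, T130 and T127, differed 1.29-fold, and T130 was the highest for no other member (log2 fold change 0.049, standard error 0.076, edgeR adjusted p = 0.930). Its partners, the checkpoint kinase BUB1 and the related BUB1B, were nearly equal per length, at 8.47 and 8.21 RPKM. BUB1 ranged from 23.7 to 39.9 CPM in the PBS and from 19.0 to 40.3 CPM in the A2M* tumours (log2 fold change 0.041). The ranges of BUB1B were 21.9 to 39.3 and 16.8 to 41.6 CPM (log2 fold change 0.024). TTK, the kinase at the top of the checkpoint, ranged from 11.97 to 20.3 and from 11.2 to 22.7 CPM (log2 fold change 0.13).

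At the kinetochore, the paired subunits NDC80 and NUF2, which grip microtubules together, had 8.13 and 8.80 RPKM. NDC80 ranged from 13.5 to 24.2 CPM in the PBS and from 12.5 to 24.9 CPM in the A2M* tumours, and NUF2 from 12.6 to 22.2 and from 11.0 to 24.7 CPM (log2 fold changes 0.11 and 0.10). CENPE, a motor that carries chromosomes to the spindle equator, varied more than any other member, 3.03-fold between tumours. It lies on chromosome 4 from 104026506 to 104119602 and measured 24.1, 21.2, 17.8, 36.5 and 15.6 CPM in T123 to T127. The A2M* tumours had a lowest value of 12.03, a median of 23.7 and a highest value of 34.5 CPM, so that T126 was above and T132 below all others (log2 fold change 0.063, standard error 0.25, edgeR adjusted p = 0.9748). CENPF, a large protein of the outer kinetochore, ranged from 60.7 to 114 and from 57.2 to 127.9 CPM (log2 fold change 0.11). CENPA, the histone variant that marks centromeres, ranged from 10.8 to 17.5 and from 7.61 to 18.1 CPM (log2 fold change -0.020).

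The partners of the anaphase-promoting complex and its substrate securin were among the more abundant members. UBE2C, the ubiquitin-conjugating enzyme of the complex (chromosome 20 from 44441215 to 44445596), measured 69.7, 58.6, 63.7, 64.1 and 61.7 CPM in T123 to T127 and 57.1, 62.3 and 76.8 CPM as the lowest, median and highest A2M* tumour. After BUB3 it was the least variable member, and T130 was its lowest tumour (log2 fold change 0.025, standard error 0.085, edgeR adjusted p = 0.970). CDC20, the activator that the checkpoint holds back, ranged from 40.8 to 58.3 CPM in the PBS and from 32.2 to 61.4 CPM in the A2M* tumours (log2 fold change 0.025). PTTG1, securin, ranged from 26.3 to 42.3 and from 27.6 to 45.6 CPM (log2 fold change 0.015).

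All 7 spindle motors and microtubule-associated proteins had a log2 fold change above 0, as had 49.4% of all genes tested. With 1 tumour left out, each of them except KIF20A turned below 0 at least once. KIF20A, a kinesin needed for cytokinesis (chromosome 5 from 137514408 to 137523412), had the highest value of all members, 0.23 (standard error 0.21, edgeR adjusted p = 0.876). Its tumours T123 to T127 measured 22.6, 22.6, 16.8, 27.9 and 17.3 CPM, and the A2M* tumours had a lowest value of 15.5, a median of 23.6 and a highest value of 38.8 CPM. The highest value was that of T131. T131 and T112 lay above every PBS tumour, T132 lay below every one of them, and the other A2M* tumours were within the PBS range. KIF11, which pushes the spindle poles apart, averaged 27.5 ± 5.71 CPM (SD, n = 5) in PBS and 28.9 ± 7.05 CPM (SD, n = 6) in A2M* tumours (log2 fold change 0.078). KIF23, of the central spindle, ranged from 26.6 to 41.0 and from 20.5 to 43.8 CPM (log2 fold change 0.038), and KIF2C, which takes microtubules apart at centromeres, from 29.0 to 51.1 and from 27.8 to 55.9 CPM (0.0023 on the log2 scale). TPX2, which activates AURKA on the spindle, was the most abundant of this group at 26.6 RPKM and ranged from 74.0 to 114 and from 63.8 to 134 CPM (log2 fold change 0.089). NUSAP1 and HMMR, which bind spindle microtubules, had log2 fold changes of 0.076 and 0.085, the former with 29.9 to 62.9 CPM over all tumours and the latter with 15.6 to 35.2 CPM.

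For cytokinesis, the contractile ring scaffold ANLN ranged from 59.4 to 109 CPM in the PBS and from 46.9 to 110 CPM in the A2M* tumours, with a log2 fold change of 0.067. ECT2, the exchange factor that turns on RhoA at the division plane, ranged from 59.7 to 103 and from 57.8 to 89.8 CPM, with a log2 fold change of -0.029. The condensin genes differed among themselves. The ATPase subunit SMC4 and the condensin I subunit NCAPD2 had 22.6 and 22.7 RPKM, and the condensin I subunit NCAPG had 3.24 RPKM. SMC4, which both condensins share, ranged from 103 to 167 and from 102 to 187 CPM (log2 fold change 0.095).

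NCAPD2 (GRCh37 chromosome 12 from 6602522 to 6641121) measured 104.5, 104.1, 90.7, 99.3 and 110 CPM in T123 to T127, and the A2M* tumours had a lowest value of 92.9, a median of 116 and a highest value of 140 CPM. Of the A2M* tumours, T129, T130, T131 and T112 were above every PBS tumour, and T128 and T132 were within the PBS range. The log2 fold change was 0.18 with a 95% confidence interval from -0.021 to 0.39 (standard error 0.095, edgeR adjusted p = 0.746). Its unadjusted p by edgeR was 0.0138 without T132, 0.0478 without T128 and 0.0349 with library size as the only scaling. In these settings 1684 of 16605, 1162 of 16515 and 1330 of 16630 genes tested were under 0.05. With any other single tumour left out, no member was under 0.05. Over those other tumours, the smallest unadjusted edgeR p of any member ran from 0.0615 without T127 to 0.177 without T131. NCAPG (chromosome 4 from 17812602 to 17846488), of the same complex, measured 17.1, 15.9, 12.7, 21.1 and 11.5 CPM in T123 to T127 and 9.18, 14.0 and 20.7 CPM as the lowest, median and highest A2M* tumour. It followed the common order with T126 highest and T132 lowest (log2 fold change -0.047, standard error 0.20, edgeR adjusted p = 0.976).

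The spread between tumours of the same treatment was taken for each gene as the SD of log2 CPM within the groups. The median SD was 0.328 over the 40 members, beside 0.185 over all genes tested and 0.153 over the 10734 genes in the members' range of abundance. For 35 of 40 it was above the median of all genes. CENPE (0.499) and TOP2A (0.428) had the largest SD, and BUB3 (0.121) and UBE2C (0.145) the smallest. CCNF (0.164), NCAPD2 (0.171) and INCENP (0.180) were the other members below the median of all genes. Between the highest and the lowest tumour the median member differed 2.03-fold, from 1.29-fold for BUB3 to 3.03-fold for CENPE.

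**Figure D3:**
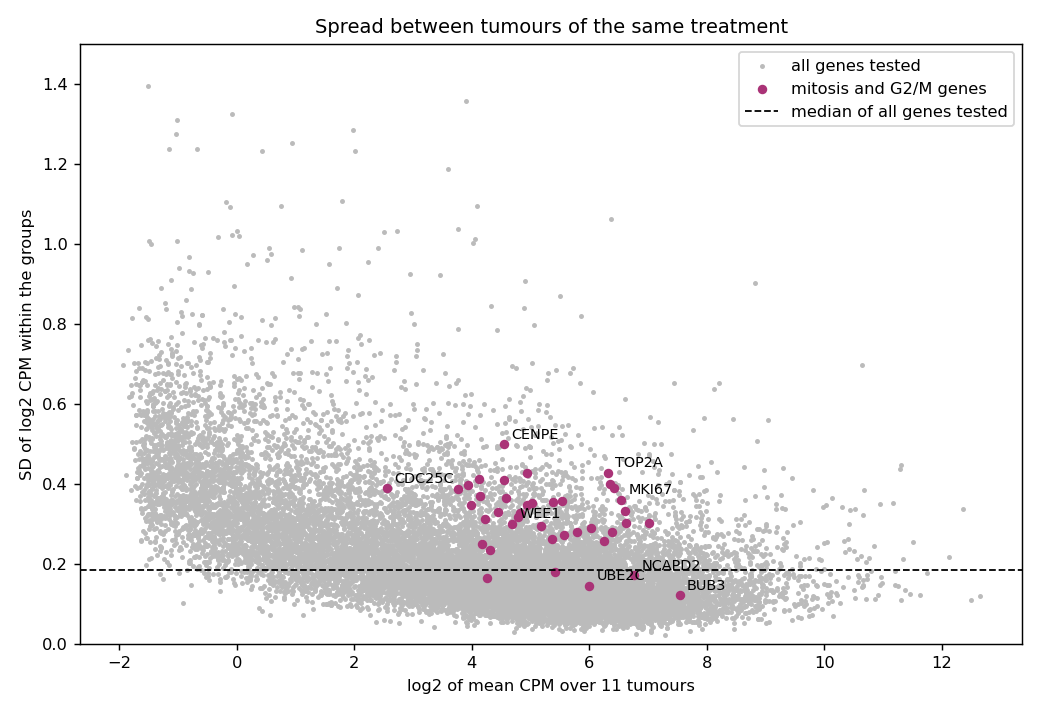
SD of log2 CPM within the groups (vertical axis) against the log2 of the mean CPM over 11 tumours (horizontal axis) for all genes tested (grey; 2 genes lie above the plotted range) and the 40 mitosis and G2/M genes (purple). The dashed line marks the median of all genes, 0.185, and 35 of 40 members lie above it, with BUB3 and UBE2C lowest and CENPE highest.

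The same tumours were high or low in nearly all members. A2M* tumour T131 had the highest value of 25 members, A2M* tumour T112 of 7 and PBS tumour T126 of 6. T132 of the A2M* group was the lowest for 34 members and PBS tumour T127 for 3. Averaged over the 40 genes, log2 CPM deviated from the genes' own means by 0.405 in T131, 0.317 in T112 and 0.306 in T126, and by -0.499 in T132, -0.312 in T127 and -0.182 in T125. Mean levels in T131 and T132 thus differed 1.87-fold, and both tumours had received A2M*. All 40 members were above their own mean in T131, and none was in T132. The 40 genes together took between 0.149% (T132) and 0.264% (T131) of a tumour's counts.

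**Figure D4:**
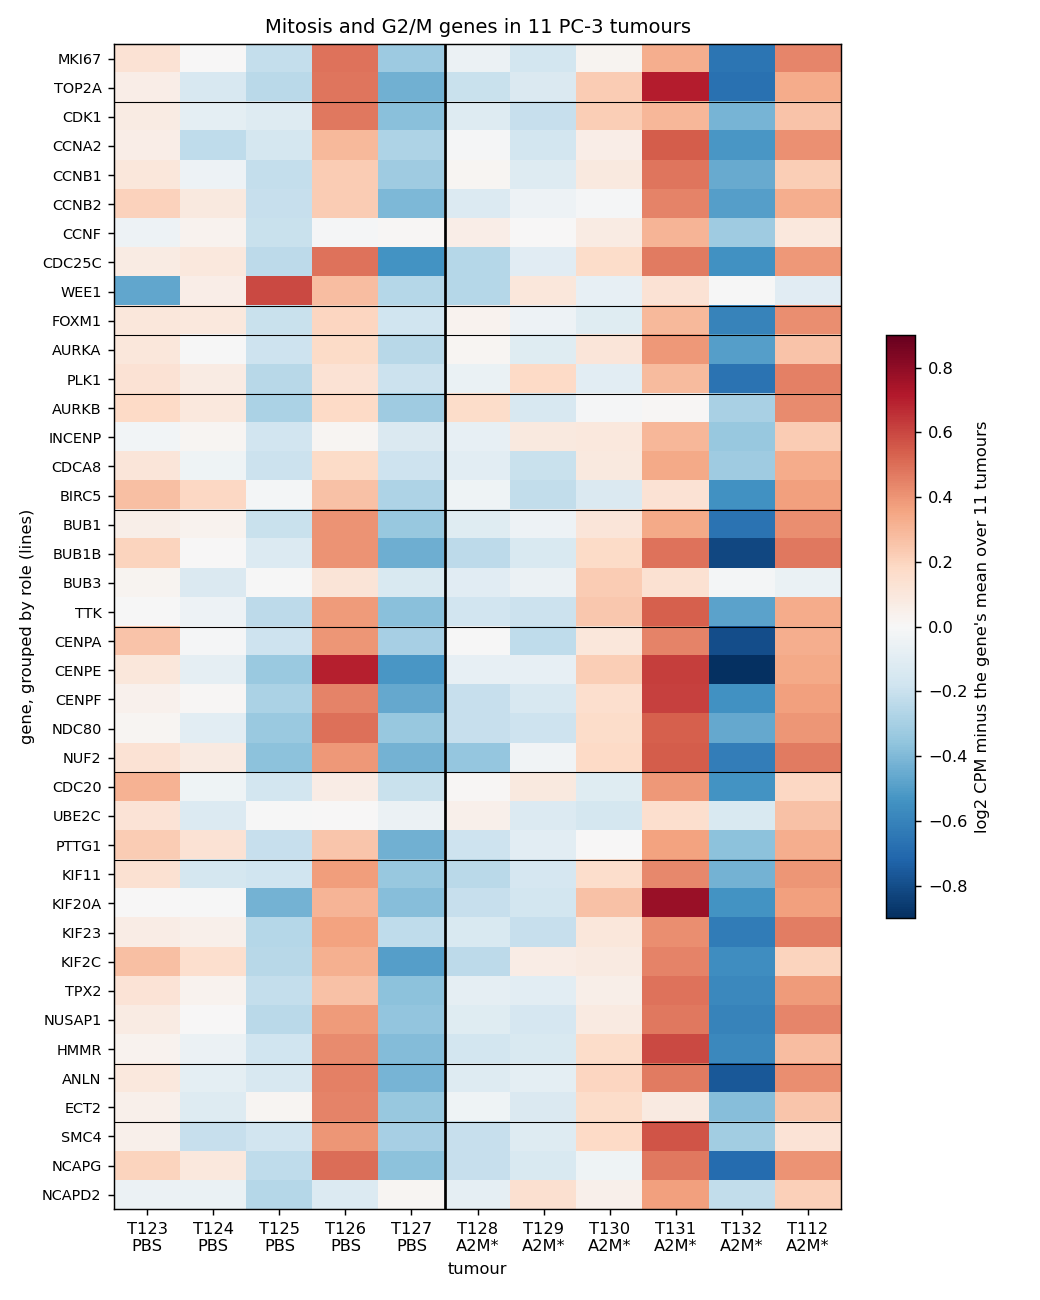
Log2 CPM of each gene minus its mean over the 11 tumours (red above, blue below the mean), genes in rows by role and tumours in columns, PBS left and A2M* right of the black line. T126, T131 and T112 are red and T132 and T127 blue in nearly every row, and the rows of WEE1, BUB3, UBE2C and NCAPD2 follow this order least.

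Against MKI67, the log2 CPM of the other 39 members was compared over the 11 tumours with two-sided permutation tests of Pearson's r (100000 resamples). The median r was 0.925, and 26 of 39 had an r of at least 0.9, as had 1.64% of the 14963 genes ranked (mean log2 CPM from 0 upwards). At an unadjusted permutation p under 0.05 there were 36 of 39 members, all with r above 0, where 18.2% of all genes passed in that direction. With p adjusted over all 14963 genes, 34 of 39 members were below 0.05, and 9.84% of all genes with r above 0. BUB1 (r = 0.983, Spearman's rho = 0.973) had the smallest permutation p that these resamples can give, 1e-05 (adjusted p = 0.0022 over all genes), as had NUSAP1 (r = 0.980, rho = 0.955), NCAPG (r = 0.978, rho = 0.973) and KIF23 (r = 0.9755, rho = 0.955). Of the kinetochore genes, CENPA (0.970), CENPE (0.961), CENPF (0.936), NDC80 (0.933) and NUF2 (0.926) all had an r above 0.9.

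Over all 11 tumours, the members that did not pass at an unadjusted p under 0.05 were WEE1 (r = 0.026, rho = 0.091, permutation p = 0.939), BUB3 (r = 0.384, rho = 0.455, permutation p = 0.243) and NCAPD2 (r = 0.506, rho = 0.409, permutation p = 0.112). CCNF (r = 0.688, permutation p = 0.0208, adjusted p = 0.0842 over all genes) and UBE2C (r = 0.647, permutation p = 0.0319, adjusted p = 0.109 over all genes) did not pass once p was adjusted over all genes. By Spearman's rho 34 members had an unadjusted permutation p under 0.05, CCNF (rho = 0.50) and UBE2C (rho = 0.60) being the ones lost. With both group means removed, the median r was 0.938 and 36 members had an exact permutation p under 0.05. Without the 2 tumours farthest from the median of MKI67, the median r was 0.909 and 35 members passed by exact permutation, CCNF being the one lost. Within the 6 A2M* tumours the median r was 0.931, with 34 members at an exact permutation p under 0.05. NCAPD2 was among these (r = 0.848, exact permutation p = 0.0403), and AURKB, SMC4 and UBE2C, along with WEE1 and BUB3, were not. Correlations are given over at least 6 tumours, and therefore not within the 5 PBS tumours.

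**Figure D5:**
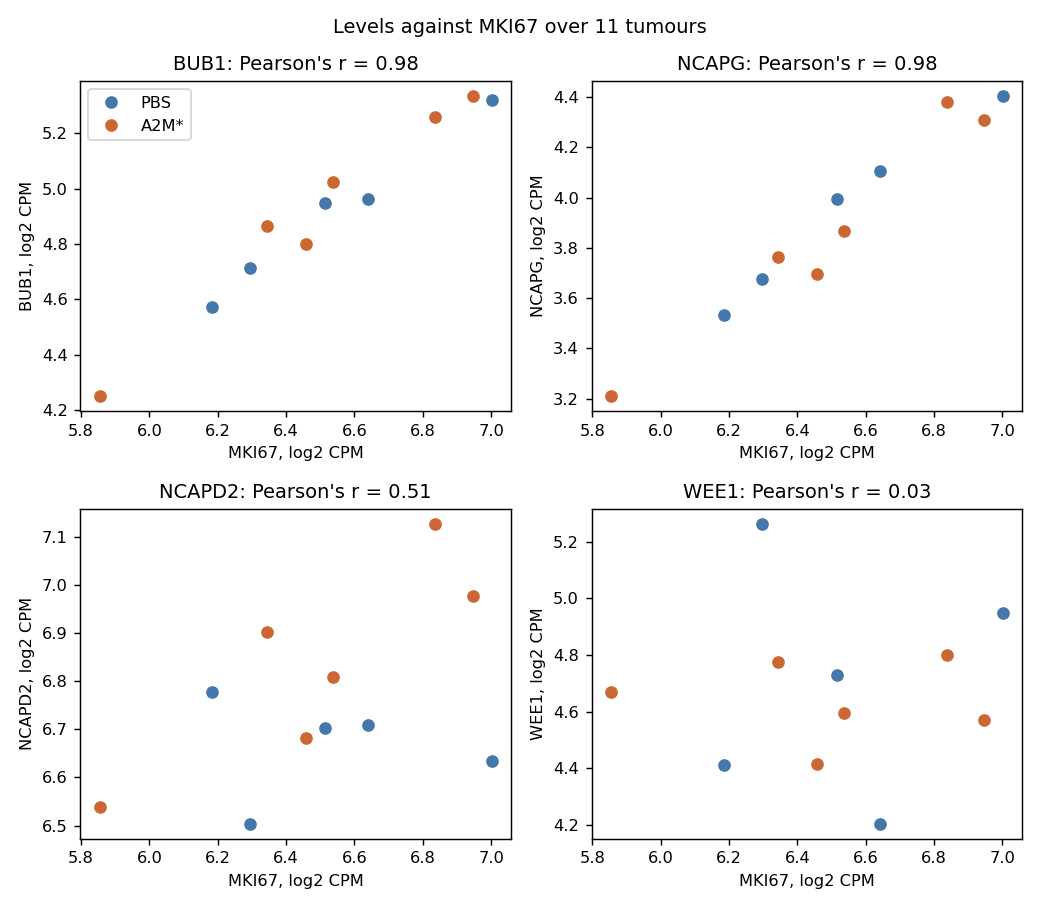
Log2 CPM of 4 genes (vertical axes) against log2 CPM of MKI67 (horizontal axes), each point a tumour, PBS in blue and A2M* in orange. BUB1 and NCAPG lie along a rising line with MKI67 (r = 0.983 and 0.978), NCAPD2 less so (0.506) and WEE1 not (0.026), and the tumours of both groups are mixed along each axis.

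Among pairs that work together, AURKA and its activator TPX2 had an r of 0.984, BUB1 and BUB1B of 0.979, NDC80 and NUF2 of 0.957, and CCNB1 and CCNB2 of 0.953 over the 11 tumours. Not all partners were alike in this way, with an r of 0.422 between BUB1 and BUB3, 0.547 between NCAPG and NCAPD2, and 0.148 between CDK1 and WEE1. These values describe tumours that share their library and depth across all genes, and no test was made on them. Over all 780 pairs of members the median r was 0.880, and 66.0% were above 0.8.

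Of the 100 genes most like MKI67 in the whole table, all with an r of at least 0.933, 16 were members and 17 belonged to other mitosis lists, PRC1 and NCAPH among them. The remaining 67 were in neither, such as MELK, CDK12 and VTI1A, which rank among the first 8. These were named by their rank alone. The lists were not made to hold every mitosis gene, so that the 67 are not thereby unrelated to mitosis.

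Other measures of the tumours were set beside MKI67, 4 in all, chosen after the values were seen. The summed CPM of 5 epithelial markers of PC-3 cells (KRT8, KRT18, KRT19, EPCAM and CDH1) was lowest in T131 with 1685, and had an r of -0.665 with MKI67 (rho = -0.70, permutation p = 0.0259, adjusted p = 0.104 over the 4 measures). Without the 2 tumours farthest from its median the r was -0.686 (exact permutation p = 0.0442), and within the A2M* group -0.733 (exact permutation p = 0.0944). For the total counts r was 0.104 (rho = -0.15, permutation p = 0.761, adjusted p = 0.787), but without its 2 farthest tumours -0.679 (exact permutation p = 0.0496). In the PBS group the order of the totals, T126 lowest and then T123, T124, T125 and T127, was the reverse of the order of MKI67, and in the A2M* group r was 0.551 (exact permutation p = 0.263). Summed host stroma and blood cell markers had an r of 0.091 (rho = 0.12, permutation p = 0.787, adjusted p = 0.787; without 2 tumours -0.233). They ranged from 367 to 747 CPM in the PBS and from 362 to 977 CPM in the A2M* tumours. Most of this was COL1A1 (293 to 884 CPM over all tumours). COL1A2 had at most 5.32 CPM, LUM at most 5 counts and DCN at most 3 counts in any tumour. The sum therefore largely follows COL1A1 and, as only reads kept as human were counted, may not measure the host cells. The mean log2 CPM of 14 hypoxia genes had an r of -0.404 (rho = -0.41, permutation p = 0.219, adjusted p = 0.437; without 2 tumours -0.364). The part of these measures in the pattern of the mitosis genes was not tested.

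Of further cell cycle genes, 8 lists gave 130 genes that were tested. None passed an adjusted p under 0.01 in edgeR, and 4 had an unadjusted p under 0.05, beside 7.08% of all genes. These were the kinetochore genes MIS12 (log2 fold change 0.19) and PMF1 (-0.22), the phosphatase CDC25B (0.19) and cyclin D1, CCND1 (0.21), each with an edgeR adjusted p of at least 0.643. Over all 130 genes of these lists the median log2 fold change was 0.024. The 21 other spindle and cytokinesis genes resembled the members in spread and in their relation to MKI67, with a median SD of 0.312 and a median r of 0.921. The 5 other condensin subunits had 0.239 and 0.879, the 16 cohesin genes 0.183 and 0.822, and the 29 other kinetochore and checkpoint genes 0.210 and 0.743. For 17 subunits and activators of the anaphase-promoting complex the median SD was 0.129 and the median r -0.075, and for 14 CDK inhibitors and quiescence genes the values were 0.225 and -0.334. The 12 tested cyclins and E2F genes of G1/S had 0.185 and 0.704, and the 16 other G2/M control genes 0.186 and 0.677. As these lists were drawn up with results of the tumours known, the values describe them and no test was made between lists. The 14 hypoxia genes had a median log2 fold change of -0.595, with 10 of 14 at an unadjusted p under 0.05 and lower in the A2M* tumours, where 3.53% of all genes were, and 0 of 14 at an adjusted p under 0.01 (edgeR).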

How the data were processed

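RNA of 11 PC-3 xenograft tumours, 5 PBS and 6 A2M*, was sequenced as single reads from TruSeq RNA v2 libraries. The authors extracted reads with bcl2fastq 1.8.4, used xenome to keep the reads of human origin apart from those of the host, aligned the former to hg19 with TopHat2 and counted them per RefSeq gene with featureCounts. These counts were deposited as raw whole numbers. Beside them the authors gave RPM, each count divided by its tumour's total and given per 1e+06 (checked against the counts), and RPKM, in which the exon length is divided out too. The strand setting of the counting is not given in the sources used here. Host reads were not used here.

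Samples were grouped by the treatment in the labels. The 40 members, their roles and the comparison lists were chosen with earlier results of these data known. Counts were filtered with filterByExpr, scaled by TMM and tested on all 16630 remaining genes by edgeR's quasi-likelihood method (edgeR 4.0.16, R 4.3.3), taking a Benjamini-Hochberg adjusted p under 0.01 as threshold. DESeq2 1.42.0 and limma-voom (limma 3.58.1) were alternatives. The edgeR p-values set the difference between groups against the spread between these tumours, taken as independent. The labels do not say how the tumours relate beyond their treatment, so that this independence could not be checked. No pair of libraries agreed within counting error (chi-square per degree of freedom of at least 8.72 over 55 pairs). Log2 CPM used a prior count of 2. Correlations were tested by permutation of the tumours, with 100000 resamples for 11 tumours and exactly for fewer. Adjustment over all genes in place of the members alone was added after seeing the data. The test steps were tested on simulated data.

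All 40 members are named. Values by tumour (each PBS tumour, and the lowest, median and highest A2M* tumour) are given for MKI67, the 3 members with the smallest p in each direction, the 2 with the largest and the 2 with the smallest SD, and those with the highest and lowest RPKM. Of other lists, the gene with the smallest p could be named, and PMF1, CCND1 and the genes ranked against MKI67 were named after their values were seen. Promoters are from RefSeq (GRCh38.p14) and positions from GENCODE on GRCh37. Python 3.11.15 and matplotlib 3.10.9 were used for the figures.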

Additional observations from a re-analysis of the deposited data

How the results depend on the processing

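No paired analysis was possible because the groups share no tumour numbers. No alternative called any of the 40 genes at an adjusted p under 0.01, among them RLE, upper quartile and library size scaling, no filter, at least 10 counts in every tumour, DESeq2, limma-voom and each tumour left out. The median log2 fold change of the members lay between -0.024 and 0.155 with 1 tumour left out, and turned below 0 without T131 or T112. Of 720 fold changes of single genes under the alternatives, 637 kept their sign and 83 in 29 genes did not, and the cause was not tested. With library size only, MKI67 (0.022), CENPA (0.019) and ECT2 (0.012) turned above 0. KIF2C turned below 0 with no filter (-0.0022) and in DESeq2 (-0.00054). With 1 tumour left out, the lowest and highest log2 fold changes of the genes that turned were MKI67 (-0.11 to 0.12), TOP2A (-0.022 to 0.29), CDK1 (-0.074 to 0.15), CCNB2 (-0.043 to 0.14), CDC25C (-0.057 to 0.20), WEE1 (-0.23 to 0.043), FOXM1 (-0.066 to 0.12), PLK1 (-0.019 to 0.18), AURKB (-0.027 to 0.12), BUB1 (-0.046 to 0.16). They were BUB1B (-0.079 to 0.15), CENPA (-0.12 to 0.10), CENPE (-0.069 to 0.29), CENPF (-0.022 to 0.25), NDC80 (-0.00078 to 0.27), NUF2 (-0.010 to 0.22), CDC20 (-0.058 to 0.12), UBE2C (-0.029 to 0.061), PTTG1 (-0.080 to 0.083), KIF11 (-0.0074 to 0.19). For the others they were KIF23 (-0.060 to 0.14), KIF2C (-0.11 to 0.10), TPX2 (-0.011 to 0.19), NUSAP1 (-0.020 to 0.19), HMMR (-0.045 to 0.22), ANLN (-0.026 to 0.20), ECT2 (-0.11 to 0.10), SMC4 (-0.027 to 0.22) and NCAPG (-0.16 to 0.083). The other cell cycle lists had 4 genes at an unadjusted p under 0.05 in place of 0 at the adjusted limit. The median SD of the members lay between 0.272 and 0.346 under all its alternatives, and the number of members with an unadjusted permutation p under 0.05 against MKI67 between 34 and 37 with 1 tumour left out. With TTTGAA alone 27 member windows held a CHR, and with 150 bases before the start 25 did. Counting error, at most 10.6% for the lowest count, limits what could be seen of a single tumour. Among 80 groups of values searched for a tumour far apart from its group, 0 were found, where chance gives 4 if the groups are separate. As the members vary together between tumours, they are not, and the 0 does not show that no tumour stood apart.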
